A study of Homo sapiens with 12 samples.

Results

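The genes described here are 39 human genes of fatty acid oxidation and of the lipid droplet, taken as a list of gene names whose rule uses no measured value. The list was nevertheless chosen with earlier results of these data known. On these arrays 38 of the 39 were measured, by 47 probes, among 20503 genes that could be named. PLIN4 had no probe that matched its RefSeq transcripts, so no value is given for it. HA22T and PLC5 are established human hepatocellular carcinoma (HCC) cell lines, each grown in DMEM with 10% FBS. Both were transfected with 10 nM siRNA in Lipofectamine RNAiMAX and harvested 48 h later. The siRNA was either a non-targeting control (siControl) or a pool against GALNT1 (siGALNT1), which encodes an enzyme that starts mucin-type O-glycosylation. The 4 groups, HA22T siControl, HA22T siGALNT1, PLC5 siControl and PLC5 siGALNT1, had 3 one-color Agilent arrays each, 12 in all. The methods describe RNA extraction in triplicate without naming separate transfections, so the p-values measure the spread between these arrays, which may be partly technical.

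Fatty acids enter the cell, are bound by carrier proteins and are activated to acyl-CoA. Acyl-CoA is either passed to the mitochondrion through the carnitine shuttle and shortened by beta-oxidation, or esterified to triglyceride and stored in lipid droplets, whose coat proteins control access of lipases. Hepatocytes do both, and they also load triglyceride onto lipoproteins for export. Receptors of the PPAR family, together with the coactivator PPARGC1A, switch on many of these genes in liver.

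Values are log2 intensities from which the array's own 75th percentile was subtracted, so 0 is the signal at that percentile and a difference of 1 is a factor of 2. Array values of a group are given in the order of replicates 1, 2 and 3. Where several probes matched a gene, the brightest was used. Probes of different genes differ in brightness for the same amount of RNA, so values are compared between samples and not between genes. Of the 38 measured genes, 29 were well above background on all 12 arrays, 6 on 7 to 11 arrays and 3 on 6 or fewer. The last 3 were MTTP, which was above background on 6 arrays, and ACADL and PLIN5, each on 1 array only. ACADL is a long-chain acyl-CoA dehydrogenase and PLIN5 a droplet coat protein of oxidative tissues, and neither was tested between the lines.

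Per array, 36679 to 48873 of 58717 spots were well above background. All 6 HA22T arrays and both replicate 1 arrays of PLC5 were on slide 1, and PLC5 replicates 2 and 3 on slide 2. The labelled tissue was checked with 12 hepatocyte markers. All 12 were above background on every PLC5 siControl array, against 6 of 12 on every HA22T siControl array, where APOH was above background on none. The summed level of the 12 markers, relative to the 75th percentile, was 134 to 212 in PLC5 siControl and 2.08 to 2.65 in HA22T siControl. Under siGALNT1 it was 116.5 to 217 in PLC5 and 1.79 to 2.44 in HA22T, where TTR and APOH were above background on no array. With siControl 11 of the 12 passed the test used below, all higher in PLC5, and AFP did not. Of a list of 10 mesenchymal markers, 9 had a probe with a value in every group. The other, COL1A1, had a probe but no value in HA22T siGALNT1, and it is left out. With siControl, 4 of 7 tested were lower in PLC5 and 1 was higher, against 14.2% and 12.4% of all genes. With siGALNT1, 5 of 7 were lower and 1 was higher, against 11.6% and 15%. The sums of the 9 were 56.6 to 102 in HA22T siControl and 19.8 to 29.5 in PLC5 siControl, and 65.1 to 91.5 and 26.6 to 33.7 under siGALNT1. VIM was lower in PLC5 with siControl (log2 difference -5.54), while FN1 was higher by 3.60. Of 4 endothelial markers, PECAM1 was higher in PLC5 by 5.41, whereas CDH5 (0.32) and VWF (0.07) did not pass and KDR was above background on no PLC5 siControl array. Of 5 adipocyte markers, 3 were above background on every HA22T siControl array and 2 on every PLC5 siControl array. CIDEC was above background on all 12 arrays, whereas FABP4 was above it on no array of any group. The part of these markers in the line differences below was not tested. In RNA from whole cultures, fewer cells of a kind and less RNA per cell cannot be told apart.

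The sequences just upstream of MTTP, FABP1 and ANGPTL4, which had large differences between the lines, are shown with that of PLIN3, which had a difference in the other direction. Each run is the 250 bases before an annotated RefSeq start in GRCh38.p14, 5′ to 3′ on the strand of the gene. MTTP has a pair of annotated starts and both are shown. Capitals mark matches to TATAAA, to GGGCGG, to AGGTCA or, with up to 2 mismatches, to a direct repeat of AGGTCA with 1 base of any kind between (called DR1). Each was searched on both strands, and a DR1 match can overlap one to AGGTCA.
MTTP, upstream start (chr4:99563880-99564129, plus strand): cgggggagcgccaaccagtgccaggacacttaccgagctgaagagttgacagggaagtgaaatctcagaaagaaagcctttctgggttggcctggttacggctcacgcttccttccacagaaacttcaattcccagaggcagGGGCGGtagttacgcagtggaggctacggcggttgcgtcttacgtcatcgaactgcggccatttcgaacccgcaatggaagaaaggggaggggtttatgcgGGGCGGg
MTTP, downstream start (chr4:99574574-99574823, plus strand): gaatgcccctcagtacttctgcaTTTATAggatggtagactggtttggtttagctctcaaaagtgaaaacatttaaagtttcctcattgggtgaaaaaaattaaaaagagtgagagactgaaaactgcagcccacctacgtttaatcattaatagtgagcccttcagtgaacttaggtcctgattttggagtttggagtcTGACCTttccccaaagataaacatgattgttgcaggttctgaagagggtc
FABP1 (chr2:88128063-88128312, minus strand): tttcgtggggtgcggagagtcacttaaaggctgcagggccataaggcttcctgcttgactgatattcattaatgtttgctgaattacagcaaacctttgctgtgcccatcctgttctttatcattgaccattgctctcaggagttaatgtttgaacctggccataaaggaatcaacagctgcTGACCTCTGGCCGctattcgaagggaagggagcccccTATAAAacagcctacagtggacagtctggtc
ANGPTL4 (chr19:8363905-8364154, plus strand): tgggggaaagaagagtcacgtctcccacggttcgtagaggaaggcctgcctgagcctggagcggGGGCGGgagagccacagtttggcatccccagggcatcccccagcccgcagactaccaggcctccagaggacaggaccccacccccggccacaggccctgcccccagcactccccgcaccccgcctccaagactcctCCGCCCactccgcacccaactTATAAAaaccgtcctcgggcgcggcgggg
PLIN3 (chr19:4867668-4867917, minus strand): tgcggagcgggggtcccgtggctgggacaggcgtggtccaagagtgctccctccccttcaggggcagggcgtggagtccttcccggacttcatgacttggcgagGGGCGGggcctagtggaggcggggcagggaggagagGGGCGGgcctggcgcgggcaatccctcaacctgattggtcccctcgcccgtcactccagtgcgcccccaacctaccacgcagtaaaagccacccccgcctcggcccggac
AGGTCA is the core element read by nuclear receptors, and a direct repeat of it with 1 base between is the element that PPAR and HNF4A bind. DR1 was found with 2 mismatches upstream of FABP1, on the other strand, from 68 bases before the start, and in 903 of all 35116 annotated starts (2.57%). Over all members it was at 5 of 55 starts (9.09%), in ACAA2, ACSL1, CD36, FABP1 and SLC27A2. Among members with siControl calls below, it was at 1 of 11 starts of genes higher in PLC5. It was also at 1 of 6 starts of genes lower in PLC5, upstream of ACSL1. A single AGGTCA was found upstream of FABP1 and of the downstream start of MTTP, and in 12.1% of all starts. FABP1 and ANGPTL4 had a TATAAA on the strand of the gene, 31 and 29 bases before the start. The one upstream of MTTP lay on the other strand, 227 bases before the downstream start. TATAAA was found at 10.7% of all starts. Of the 10 genes that were higher in PLC5 with siControl below, 9 matched the table, and 4 of their 11 starts (36.4%) held it, in MTTP, FABP1, ANGPTL4 and PLIN2. Over all members it was 9 of 55 starts (16.4%). GGGCGG, a GC box, was found at 42.6% of all starts and upstream of MTTP, ANGPTL4 and PLIN3. Over all 39 genes, 31 matched, with 55 starts. Letters that match describe these windows alone.

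The first question was how far the machinery of fat oxidation and storage differs between the HCC cell lines. PLC5 had more RNA of the lipoprotein loading protein MTTP, the fatty acid carrier FABP1, the lipase inhibitor ANGPTL4 and the droplet protein CIDEB than HA22T, each by more than 4 on the log2 scale with siControl. The whole carnitine shuttle (CPT1A, SLC25A20 and CPT2) and the droplet coat protein PLIN2 were also higher in PLC5. ACSL1, PLIN3 and DGAT2 were higher in HA22T. With siControl, 13 of 36 genes tested passed an adjusted p of 0.05, 10 higher and 3 lower in PLC5, against 26.6% of all 17417 genes tested (12.4% higher and 14.2% lower). The median difference of the 36 was 0.35, against -0.10 over all genes. With siGALNT1, on the other 6 arrays, 18 of 36 passed, 15 higher and 3 lower, against 26.6% of all 17201 genes (15% higher and 11.6% lower), and the median was 0.68 against -0.07. The share of all genes with calls on the higher side in this second comparison depended on scaling, from 56.3% here to 41.1% when the percentile was taken over unflagged spots, while it was 83.3% and 78.6% for the members. All 13 genes of the first comparison were among the 18 of the second. The comparisons share no array but do share 1 estimate of the spread over all 12. Fitted on its own 6 arrays alone, the siGALNT1 comparison gave 11 calls, all higher in PLC5, so that ACSL1, PLIN3 and DGAT2 did not pass there. Both counts include MTTP, which entered the test only through the PLC5 arrays where it was high. ANGPTL4 in both comparisons and FABP1 with siGALNT1 also needed the PLC5 arrays to enter. The plot of values by array shows these 18 genes, and the plot of line differences shows all 36.

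**Figure D1:**
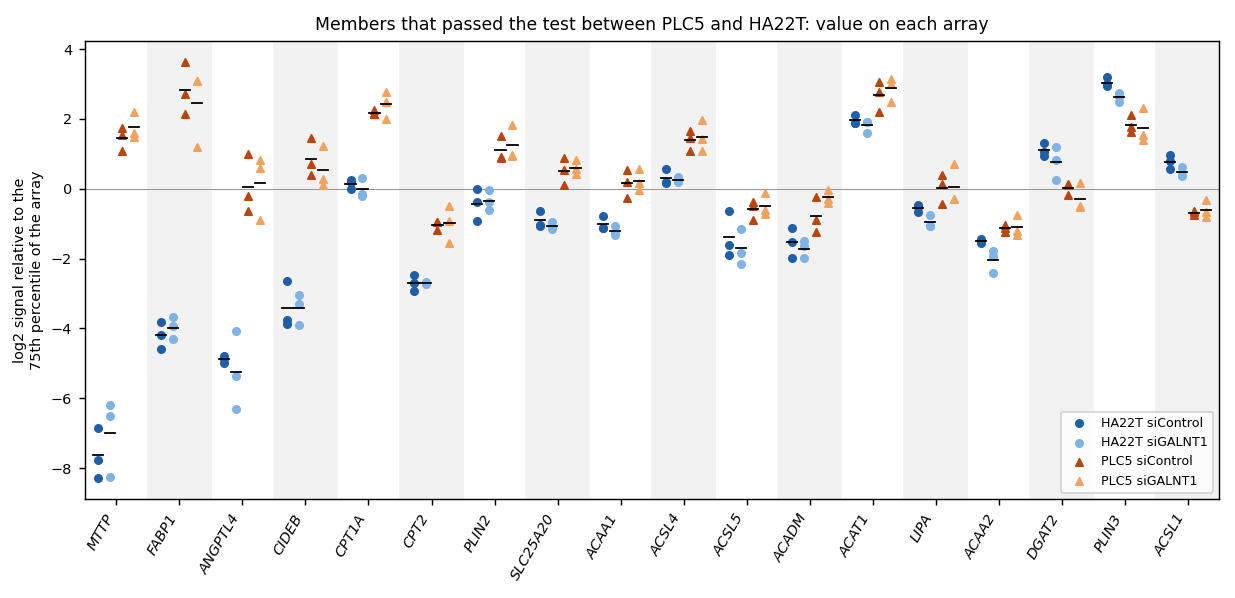
Log2 signal relative to the 75th percentile of the array (vertical axis) for the 18 genes that passed the test between PLC5 and HA22T with siControl or siGALNT1. Each point is 1 array, each bar the mean of 3 arrays, circles are HA22T and triangles PLC5. The genes are ordered by fitted difference, with those in favor of PLC5 on the left, where the siControl means of FABP1, ANGPTL4 and CIDEB lie more than 4 apart and the HA22T points of MTTP are below background, to ACSL1 on the right, where HA22T lies above.

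The lines did not overlap for 19 of 36 genes with siControl, 15 with every PLC5 array above and 4 with every PLC5 array below, against 47.4% of all genes (21.3% above and 26.1% below). With siGALNT1 this was 24 of 36, 21 above and 3 below, against 45.8% (23.2% above and 22.6% below). The 23 genes that did not pass with siControl had differences from -0.79 (PPARG) to 0.80 (ACSL5). Of them, 12 had a value above 0 and 11 one below.

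**Figure D2:**
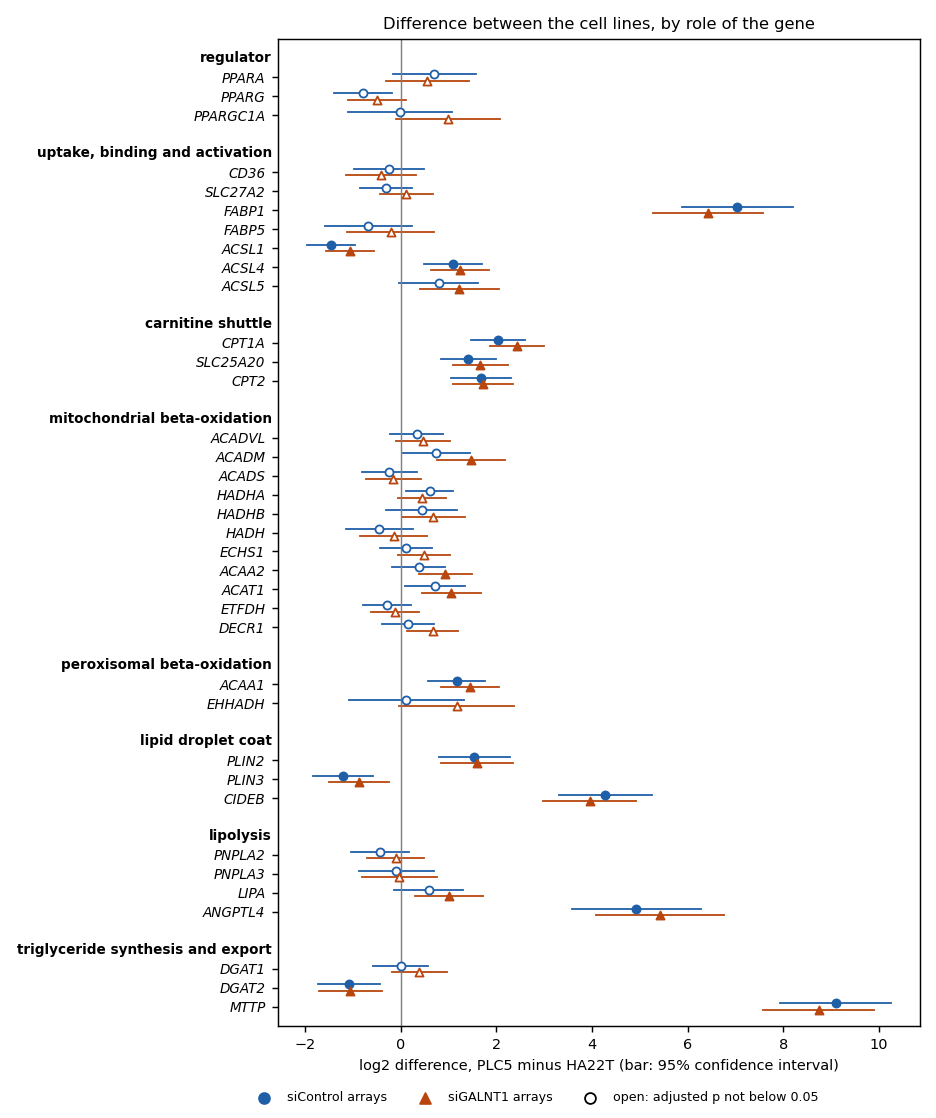
Difference between the lines, PLC5 minus HA22T, on the log2 scale (horizontal axis) for 36 genes grouped by role, with siControl arrays as blue circles and siGALNT1 arrays as red triangles. Bars are 95% confidence intervals from limma, and filled symbols have an adjusted p below 0.05. The 3 genes of the carnitine shuttle all lie to the right of 0, whereas all symbols of mitochondrial beta-oxidation with siControl are open. The bars of MTTP rest on HA22T signals below background.

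Among the regulators, 0 of 3 passed in either comparison by their brightest probe. PPARA, the receptor that drives oxidation genes in liver, had differences of 0.70 with siControl (95% interval -0.16 to 1.57) and 0.55 with siGALNT1 (-0.31 to 1.42). Its dimmer probe lay further apart, with means of -3.40 in HA22T and -2.22 in PLC5 with siControl, and -3.15 and -2.17 with siGALNT1. PPARG, the receptor of fat storage, gave 0.54, 0.77 and 0.81 in HA22T siControl and -0.07, -0.11 and -0.08 in PLC5 siControl, which do not overlap. Its difference of -0.79 had an adjusted p of 0.0629 in limma, and with siGALNT1 it was -0.49 (adjusted p = 0.23). The dimmer PPARG probe also lay further apart, with means of 0.62 in HA22T and -0.31 in PLC5 with siControl, and 0.46 and -0.30 with siGALNT1. PPARGC1A, the coactivator of oxidative metabolism, was above background on 7 of 12 arrays, with differences of -0.02 and 0.98 and an interval of -1.1 to 1.07 in the first.

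Uptake, binding and activation include FABP1, the abundant fatty acid carrier of the hepatocyte cytosol. FABP1 gave -4.59, -3.82 and -4.20 in HA22T siControl and 3.64, 2.72 and 2.14 in PLC5 siControl. With siGALNT1 it gave -3.67, -4.32 and -3.94 in HA22T and 3.08, 3.08 and 1.18 in PLC5. FABP1 was above background on 3 of 3 HA22T siControl arrays and 2 of 3 HA22T siGALNT1 arrays. With siGALNT1 it could not be tested when all 6 arrays had to be above background. Every PLC5 array lay above every HA22T array, and the means were -4.20 ± 0.39 and 2.84 ± 0.76 with siControl (SD, n = 3). The difference, PLC5 minus HA22T, was 7.04 with siControl (SE 0.53, adjusted p = 3.26e-06) and 6.43 with siGALNT1 (SE 0.53, adjusted p = 7.34e-06, limma).

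The acyl-CoA synthetases, which activate fatty acids, went in different directions. ACSL1, the main isoform of liver and fat, gave 0.79, 0.56 and 0.96 in HA22T siControl and -0.76, -0.64 and -0.65 in PLC5 siControl. Under siGALNT1 the values were 0.37, 0.40 and 0.62 in HA22T and -0.67, -0.32 and -0.80 in PLC5, so that HA22T lay above PLC5 on every array. PLC5 minus HA22T was -1.45 with siControl (SE 0.23, adjusted p = 7.46e-04) and -1.06 with siGALNT1 (SE 0.23, adjusted p = 0.00587, limma). ACSL4, which prefers arachidonate, gave 0.56, 0.18 and 0.16 in HA22T siControl and 1.46, 1.64 and 1.09 in PLC5 siControl. Under siGALNT1 ACSL4 gave 0.22, 0.20 and 0.33 in HA22T and 1.43, 1.96 and 1.09 in PLC5. All PLC5 values of ACSL4 exceeded those of HA22T, by 1.1 with siControl (SE 0.28, adjusted p = 0.0141) and 1.24 with siGALNT1 (SE 0.28, adjusted p = 0.0074, limma). The siControl call was lost without HA22T siControl replicate 3 (adjusted p = 0.0545), without PLC5 siControl replicate 2 (adjusted p = 0.0614) and with the slide as a block (adjusted p = 0.0511).

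ACSL5, an isoform of intestine and liver, gave -0.64, -1.91 and -1.62 in HA22T siControl and -0.90, -0.38 and -0.50 in PLC5 siControl, where the groups overlapped. With siGALNT1 it gave -1.15, -2.15 and -1.83 and -0.73, -0.14 and -0.61, which did not overlap. The difference was 0.80 with siControl (adjusted p = 0.168) and 1.22 with siGALNT1 (SE 0.38, adjusted p = 0.0374, limma). That second call was lost when any of 6 arrays was left out (adjusted p over the 12 omissions 0.0189 to 0.132): HA22T siGALNT1 replicates 2 and 3, all 3 PLC5 siGALNT1 arrays and PLC5 siControl replicate 3. The siControl difference of ACSL5 passed without HA22T siControl replicate 1 (adjusted p = 0.0446). The uptake proteins CD36 and SLC27A2 did not pass in either comparison, with differences of -0.24 and -0.31 with siControl and -0.41 and 0.12 with siGALNT1. FABP5, a carrier of epithelial cells whose processed pseudogenes are near copies that its probes may also bind, had differences of -0.68 (95% interval -1.59 to 0.23) and -0.21 (-1.12 to 0.71). Its dimmer probes were also lower in PLC5 with siControl. With siGALNT1 they lay the other way, with means of 2.40 and 3.08 in HA22T and 2.62 and 3.21 in PLC5.

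All 3 genes of the carnitine shuttle were higher in PLC5, in both comparisons. CPT1A makes acylcarnitine at the outer mitochondrial membrane and is the rate-limiting step of oxidation. It gave 0.24, 0.19 and -0.02 in HA22T siControl and 2.25, 2.15 and 2.13 in PLC5 siControl. With siGALNT1 the values were -0.22, 0.30 and -0.14 and 2.50, 2.76 and 2.0. The lines were far apart and the replicates close, with means of 0.14 ± 0.14 and 2.18 ± 0.07 (SD, n = 3) in the siControl groups, a 4.11-fold difference. Between the lines, the difference of CPT1A was 2.04 with siControl (SE 0.26, adjusted p = 1.66e-04) and 2.44 with siGALNT1 (SE 0.26, adjusted p = 4.70e-05, limma).

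SLC25A20 carries acylcarnitine across the inner membrane. It gave -0.63, -1.03 and -1.06 in HA22T siControl against 0.87, 0.10 and 0.54 in PLC5 siControl, and -1.09, -0.95 and -1.14 against 0.82, 0.57 and 0.42 with siGALNT1. No HA22T array reached a PLC5 array. SLC25A20 differed, as PLC5 minus HA22T, by 1.41 with siControl (SE 0.26, adjusted p = 0.00224) and 1.67 with siGALNT1 (SE 0.26, adjusted p = 7.65e-04, limma). CPT2 turns acylcarnitine back into acyl-CoA inside the mitochondrion. Its values were -2.47, -2.93 and -2.71 in HA22T siControl and -0.95, -0.96 and -1.18 in PLC5 siControl. With siGALNT1 CPT2 gave -2.70, -2.68 and -2.74 in HA22T and -0.92, -0.49 and -1.57 in PLC5. Again all PLC5 arrays lay above, by 1.67 (SE 0.28, adjusted p = 0.0013) and 1.71 (SE 0.28, adjusted p = 0.00116, limma). The differences of CPT1A, SLC25A20 and CPT2 within slide 1 alone were 2.11, 1.78 and 1.75 with siControl. These rest on 1 PLC5 siControl array, replicate 1, which had the highest PLC5 siControl value for each of these genes.

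The enzymes of mitochondrial beta-oxidation shorten the acyl chain step by step. Of 11 tested, 0 passed with siControl by their brightest probe, and the median difference of the 11 was 0.33. An unadjusted p below 0.05 (limma) was found for 3, all higher in PLC5. Of all 17417 genes tested, 3011 were higher and 3652 lower at that threshold. With siGALNT1, 3 passed, all higher in PLC5: ACADM, ACAT1 and ACAA2. ACADM, the medium-chain acyl-CoA dehydrogenase, gave -1.65, -2.0 and -1.5 in HA22T siGALNT1 and -0.40, -0.04 and -0.30 in PLC5 siGALNT1. With siControl it gave -1.11, -2.0 and -1.51 and -0.89, -1.24 and -0.25, where a PLC5 array lay below one of HA22T. The ACADM difference was 1.47 with siGALNT1 (SE 0.32, adjusted p = 0.0065) and 0.75 with siControl (adjusted p = 0.128, limma).

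ACAT1, the thiolase that also closes the ketone body pathway, gave 2.12, 1.87 and 1.87 in HA22T siControl and 3.05, 2.21 and 2.77 in PLC5 siControl. Under siGALNT1 it gave 1.60, 1.91 and 1.92 and 3.15, 2.99 and 2.47. No PLC5 array overlapped HA22T in either comparison. The difference was 0.72 with siControl (adjusted p = 0.0975) and 1.06 with siGALNT1 (adjusted p = 0.0197, limma). Both dimmer ACAT1 probes passed in both comparisons, with differences of 1.32 and 1.13 with siControl (adjusted p = 0.00225 and 0.00441). The brightest probe also passed with siControl when PLC5 siControl replicate 2 was left out (adjusted p = 0.0494) and with the slide as a block (adjusted p = 0.0379). Its siGALNT1 call was lost without HA22T siGALNT1 replicate 1, PLC5 siGALNT1 replicate 1 or PLC5 siGALNT1 replicate 2 (adjusted p = 0.0602, 0.0729 and 0.0661).

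ACAA2, the mitochondrial 3-ketoacyl-CoA thiolase, gave -1.44, -1.55 and -1.54 in HA22T siControl and -1.04, -1.23 and -1.14 in PLC5 siControl, a small gap with tight replicates. With siGALNT1 the values were -2.42, -1.92 and -1.77 and -1.33, -0.74 and -1.23, again without overlap. The ACAA2 difference was 0.38 (adjusted p = 0.343) and 0.93 (SE 0.25, adjusted p = 0.0207, limma), and the second call was lost without HA22T siGALNT1 replicate 1 (adjusted p = 0.0701), without PLC5 siGALNT1 replicate 2 (adjusted p = 0.0836), after normexp background correction (adjusted p = 0.0559) and with the slide as a block (adjusted p = 0.0752). The mitochondrial trifunctional protein is built of HADHA and HADHB. HADHA had differences of 0.60 (adjusted p = 0.0813) and 0.45 (adjusted p = 0.182), with no overlap in either comparison. The HADHB probes disagreed in size. The brighter one, read on 2 of the 3 HA22T siControl arrays, gave 0.44 (adjusted p = 0.41) and 0.69 (adjusted p = 0.127). With the slide as a block, the second was 1.09 and passed (adjusted p = 0.0277). The dimmer one read -0.63, -0.47 and -0.67 in HA22T siControl and 1.52, 0.88 and 1.14 in PLC5 siControl, a difference of 1.77 (adjusted p = 6.06e-04), and 1.90 with siGALNT1 (adjusted p = 3.84e-04, limma).

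The other 6 tested enzymes of this group, ACADVL, ACADS, HADH, ECHS1, ETFDH and DECR1, did not pass in either comparison. They cover the very long-chain and short-chain dehydrogenases, the 3-hydroxyacyl-CoA dehydrogenase, the short-chain hydratase, the electron transfer to ubiquinone and the reductase for unsaturated chains. With siControl they ranged from -0.45 (HADH) to 0.33 (ACADVL), and with siGALNT1 from -0.16 (ACADS) to 0.67 (DECR1, adjusted p = 0.0734). The 95% interval of ETFDH, -0.79 to 0.22 with siControl, leaves out a difference of 1 in either direction.

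Of the peroxisomal enzymes, ACAA1 was higher in PLC5 and EHHADH did not pass. ACAA1, the peroxisomal 3-ketoacyl-CoA thiolase, gave -0.77, -1.11 and -1.13 in HA22T siControl and 0.55, -0.25 and 0.19 in PLC5 siControl. With siGALNT1 it gave -1.26, -1.33 and -1.07 and 0.55, 0.17 and -0.04, so the lines did not overlap in either comparison. The difference, PLC5 minus HA22T, was 1.17 with siControl (SE 0.27, adjusted p = 0.00949) and 1.45 with siGALNT1 (SE 0.27, adjusted p = 0.00268, limma). EHHADH, the peroxisomal bifunctional enzyme, was above background on 9 of 12 arrays and had differences of 0.11 (95% interval -1.09 to 1.31) and 1.17 (-0.03 to 2.38).

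The droplet coat proteins were split. PLIN2, which coats droplets in most cells and is the main one of liver, gave -0.39, -0.01 and -0.93 in HA22T siControl and 1.5, 0.91 and 0.89 in PLC5 siControl. With siGALNT1 the PLIN2 values were -0.39, -0.04 and -0.61 and 1.83, 0.94 and 0.97, so every PLC5 array lay above HA22T. PLC5 minus HA22T was 1.54 with siControl (SE 0.34, adjusted p = 0.00705) and 1.59 with siGALNT1 (SE 0.34, adjusted p = 0.00603, limma). PLIN3, a soluble family member that moves onto new droplets, lay the other way. It gave 2.94, 2.99 and 3.20 in HA22T siControl and 1.62, 2.12 and 1.75 in PLC5 siControl, and 2.48, 2.64 and 2.73 and 1.53, 2.32 and 1.39 with siGALNT1. The difference of PLIN3 was -1.21 with siControl (SE 0.28, adjusted p = 0.00945) and -0.87 with siGALNT1 (SE 0.28, adjusted p = 0.046, limma). The siGALNT1 call was lost in 11 of the 12 single omissions, all except that of PLC5 siGALNT1 replicate 2 (adjusted p 0.0117 to 0.134), and also with median scaling (adjusted p = 0.0546) and in the deposited log2 table (adjusted p = 0.0608).

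CIDEB, a liver protein of lipid droplets and lipoprotein maturation, was above background on all 12 arrays, although low in HA22T. It gave -3.88, -2.64 and -3.76 in HA22T siControl and 1.45, 0.39 and 0.71 in PLC5 siControl. With siGALNT1 it gave -3.30, -3.06 and -3.89 in HA22T and 1.23, 0.27 and 0.10 in PLC5. The lowest PLC5 array exceeded the highest HA22T array by more than the range within any group, and the fold was 19.4 with siControl. Between the lines, the difference of CIDEB was 4.28 with siControl (SE 0.44, adjusted p = 3.57e-05) and 3.95 with siGALNT1 (SE 0.44, adjusted p = 6.94e-05, limma).

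Of the lipolysis genes, ANGPTL4 was higher in PLC5 in both comparisons and LIPA with siGALNT1. ANGPTL4 is a secreted inhibitor of lipoprotein lipase and a known PPAR target. It gave -4.88, -4.98 and -4.81 in HA22T siControl, where 2 of 3 arrays were above background, and 0.98, -0.21 and -0.65 in PLC5 siControl. With siGALNT1 the values were -5.37, -4.08 and -6.30 in HA22T, with 1 of 3 above background, and 0.83, 0.59 and -0.89 in PLC5. Every PLC5 array lay above every HA22T array, although HA22T lay near the detection limit. ANGPTL4 differed, as PLC5 minus HA22T, by 4.93 with siControl (SE 0.61, adjusted p = 1.39e-04) and 5.43 with siGALNT1 (SE 0.61, adjusted p = 7.33e-05, limma). These p-values rest in part on HA22T readings below background. ANGPTL4 could not be tested in either comparison when all 6 arrays had to be above background. LIPA, the lysosomal acid lipase, gave -0.47, -0.51 and -0.68 in HA22T siControl and -0.45, 0.40 and 0.13 in PLC5 siControl. With siGALNT1 LIPA gave -1.07, -1.07 and -0.76 and -0.29, 0.71 and -0.29. The lines did not overlap in either comparison, yet the difference was 0.58 (adjusted p = 0.247) and 1.01 (SE 0.32, adjusted p = 0.044, limma). The siGALNT1 call of LIPA was lost with the slide as a block (adjusted p = 0.239), under quantile normalization (adjusted p = 0.0692), with median scaling (adjusted p = 0.0565) and in 8 of the 12 single omissions (adjusted p 0.0375 to 0.162): all 6 HA22T arrays, PLC5 siGALNT1 replicate 2 and PLC5 siControl replicate 3.

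PNPLA2, the lipase that starts the breakdown of droplet triglyceride, had differences of -0.43 (95% interval -1.03 to 0.17) and -0.11 (-0.71 to 0.49). Its dimmer probe gave -1.03 (adjusted p = 0.0968) and -0.87 (adjusted p = 0.15). PNPLA3, a droplet enzyme of liver, had differences of -0.09 (-0.88 to 0.69) and -0.03 (-0.82 to 0.76).

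In triglyceride synthesis and export, MTTP was higher in PLC5 and DGAT2 lower. MTTP loads triglyceride onto apolipoprotein B and is needed for very low-density lipoprotein. In HA22T it was above background on no array, with readings of -7.78, -8.29 and -6.85 for siControl and -8.26, -6.19 and -6.50 for siGALNT1. PLC5 gave 1.09, 1.55 and 1.74 with siControl and 1.49, 2.18 and 1.60 with siGALNT1, all above background. MTTP was at least 129-fold higher in PLC5 than in HA22T with siControl (adjusted p = 5.89e-07) and at least 106-fold with siGALNT1 (adjusted p = 8.21e-07, limma). Each bound sets the PLC5 mean against the lowest signal above background on the HA22T arrays, or the MTTP reading where that was higher. The p-values rest on HA22T readings below background, and MTTP could not be tested when all 6 arrays had to be above background.

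The last step of triglyceride synthesis is catalyzed by DGAT1 and DGAT2. DGAT2 gave 1.06, 0.94 and 1.29 in HA22T siControl and -0.18, 0.14 and 0.10 in PLC5 siControl. With siGALNT1 the values were 1.19, 0.26 and 0.83 and -0.52, -0.50 and 0.16, and all HA22T arrays lay above those of PLC5. The difference, PLC5 minus HA22T, was -1.08 with siControl (SE 0.30, adjusted p = 0.0228) and -1.05 with siGALNT1 (SE 0.30, adjusted p = 0.0256, limma). Leaving out any siControl array other than HA22T siControl replicate 2 ended the siControl call (adjusted p over the 12 omissions 0.0172 to 0.0819), and leaving out HA22T siGALNT1 replicate 1 or 3 or PLC5 siGALNT1 replicate 1 or 2 ended the siGALNT1 call (adjusted p 0.0142 to 0.0902). DGAT1 had differences of -0.00 with siControl (95% interval -0.58 to 0.57) and 0.39 with siGALNT1 (-0.18 to 0.96).

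Slide and line are partly confounded, since HA22T was on slide 1 only. With the slide as a block, 12 of the 13 and 15 of the 18 still passed. The genes that did not were ACSL4 with siControl, and ACAA2, ACSL5 and LIPA with siGALNT1. The block added ACAT1 with siControl and HADHB with siGALNT1. The plot of differences with and without slide 2 shows that FABP1, ANGPTL4, CIDEB and PLIN2 were further apart within slide 1 than over all arrays. Slide 1 holds only 1 PLC5 siControl array, replicate 1. That array had the highest PLC5 siControl value for each of these genes.

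**Figure D3:**
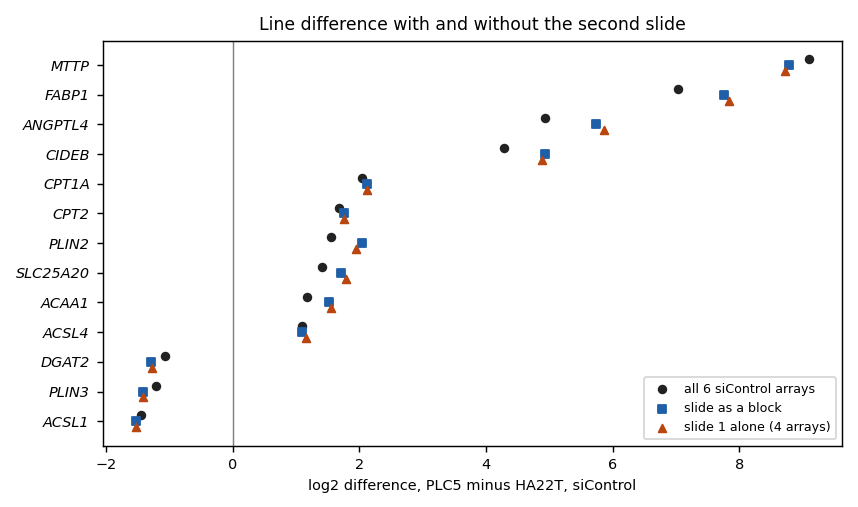
Line difference with siControl, PLC5 minus HA22T on the log2 scale (horizontal axis), of the 13 genes that passed, from all 6 siControl arrays (black circles), with the slide as a block (blue squares) and from slide 1 alone (red triangles). Slide 1 alone holds 1 PLC5 siControl array, replicate 1. FABP1 moves from 7.04 to 7.84 and CIDEB from 4.28 to 4.88, and the MTTP symbols rest on HA22T readings below background.

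A wider list of 69 genes of the same pathways, 68 with a probe, was read beside the members. With siControl, 22 of 60 tested passed, 16 higher and 6 lower in PLC5, with a median of 0.33, against 26.6% of all genes (12.4% higher and 14.2% lower). With siGALNT1, 21 of 61 passed, 17 higher and 4 lower, with a median of 0.26, against 26.6% (15% higher and 11.6% lower). The counts by role are small and are given as a description. By role, 5 of 12 tested droplet and lipolysis genes were higher in PLC5 with siControl and 1 was lower, and of 9 peroxisomal genes 2 were higher and 0 lower. Of 12 genes of carnitine and mitochondrial oxidation 3 were higher and 2 lower, and of 8 genes of triglyceride synthesis 3 were higher and 1 lower. Among 10 regulators 2 were higher and 1 lower, and of 6 uptake and binding genes 1 was higher.

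Large siControl differences among these went in both directions. OXCT1, which lets cells burn ketone bodies and is normally off in hepatocytes, was above background on no PLC5 array. It gave -1.85, -2.48 and -2.91 in HA22T siControl, all above background, and was at least 8.99-fold lower in PLC5 (adjusted p = 2.99e-05, limma). That p rests on PLC5 readings below background, and OXCT1 could not be tested when all 6 arrays had to be above background. MGLL, the monoacylglycerol lipase, was also lower, with a difference of -3.24 (SE 0.33, adjusted p = 3.01e-05). Its values were 1.24, 1.06 and 1.24 in HA22T siControl and -2.74, -1.85 and -1.60 in PLC5 siControl, far apart. HNF4A, a transcription factor of hepatocytes, was higher in PLC5 by 3.24 (SE 0.43, adjusted p = 2.11e-04), from -0.46, -1.08 and -1.13 to 3.09, 1.91 and 2.06. Higher in PLC5 were also MOGAT3, a monoacylglycerol acyltransferase (3.84), the peroxisomal enzyme ACOX2 (1.79), the lipase inhibitor HILPDA (2.23) and the bile acid and fatty acid transport protein SLC27A5 (1.98). Adjusted p-values of these 4 were 1.99e-04, 0.00236, 0.0107 and 0.00121 in limma. MOGAT3 was above background on 2 of 3 HA22T siControl arrays. It could not be tested when all 6 arrays had to be above background.

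The second question was whether GALNT1 knockdown changed these genes. GALNT1 itself gave 1.32, 0.75 and 0.85 in HA22T siControl and -3.15, -3.68 and -5.55 in HA22T siGALNT1, and 0.87, 0.37 and 0.61 and -1.93, -3.47 and -3.92 in PLC5. All siGALNT1 arrays lay below the siControl arrays of the same line. The change was -5.10 in HA22T (SE 0.61, adjusted p = 0.0708) and -3.72 in PLC5 (SE 0.61, adjusted p = 1.00, limma), so the targeted gene itself did not pass with this probe. Its other probe changed by -4.75 in HA22T (adjusted p = 0.0305) and -3.03 in PLC5 (adjusted p = 1.00). After normexp background correction it passed in both lines, with adjusted p = 1.67e-04 and 0.009.

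No member passed in either line. In HA22T 0 of 35 tested passed (0% of all 16967 genes), 0 had an unadjusted p below 0.05, and 0 met the study's criterion, a fold of at least 1.5 with an unadjusted p below 0.05, against 2.52% of all genes. In PLC5 0 of 36 passed (0% of all 17316 genes), 0 had an unadjusted p below 0.05 and 0 met the criterion, against 0.762%. Every alternative setting that was run also gave 0 at the adjusted threshold in both lines. With the replicate number as a block, 1 member met the study's criterion in HA22T, EHHADH (unadjusted p = 0.0426, adjusted p = 0.849, limma). The HA22T count at this criterion was also 1 with array weights, 1 without HA22T siGALNT1 replicate 1 and 2 without HA22T siGALNT1 replicate 3. In PLC5 it was 1 without PLC5 siControl replicate 3. The 35 changes in HA22T ran from -0.98 (EHHADH) to 0.24 (PPARA), and the 36 in PLC5 from -0.39 (FABP1) to 0.55 (ACADM). The 95% interval stayed within a factor of 2 in either direction for 24 of 35 genes in HA22T and 28 of 36 in PLC5. The plot of siGALNT1 changes shows the intervals of all genes.

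**Figure D4:**
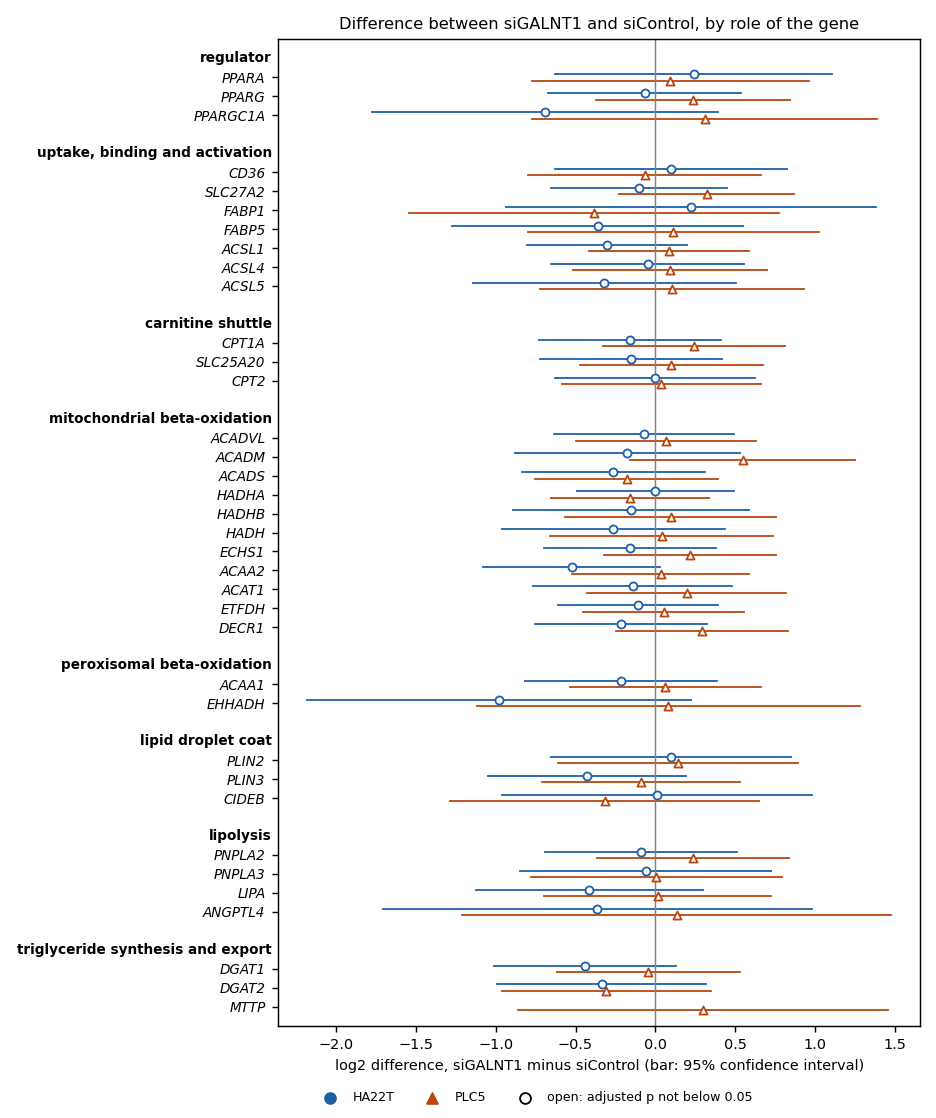
Change with GALNT1 knockdown, siGALNT1 minus siControl on the log2 scale (horizontal axis), for 35 genes in HA22T (blue circles) and 36 in PLC5 (red triangles), grouped by role. Bars are 95% confidence intervals from limma, and all symbols are open because no adjusted p was below 0.05. Every bar reaches across 0. MTTP has no HA22T symbol because it was not above background there.

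In HA22T the 6 members with the smallest unadjusted p were ACAA2, EHHADH, DGAT1, PLIN3, PPARGC1A and ACSL1. ACAA2 gave -1.44, -1.55 and -1.54 with siControl and -2.42, -1.92 and -1.77 with siGALNT1, and the groups did not overlap. Its change was -0.52 (SE 0.25, unadjusted p = 0.0623, adjusted p = 1.00, limma). EHHADH gave -4.32, -4.47 and -4.37 with siControl and -5.87, -6.03 and -4.20 with siGALNT1, where replicate 3 lay above all controls. Its change was -0.98 (SE 0.55), and with single arrays left out it ran from -1.56 to -0.65. Over all alternative settings it ran from -1.56 to -0.15. DGAT1 (-0.44), PLIN3 (-0.43), PPARGC1A (-0.69) and ACSL1 (-0.30) had unadjusted p-values of 0.119, 0.159, 0.188 and 0.211 in limma. The HA22T groups did not overlap for 5 of 35 genes, ACAA2, PLIN3, LIPA, HADH and HADHB, all with siGALNT1 below, against 11.9% of all genes (6.14% below).

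In PLC5 the 6 members with the smallest unadjusted p were ACADM, SLC27A2, DECR1, DGAT2, CPT1A and ECHS1. ACADM gave -0.89, -1.24 and -0.25 with siControl and -0.40, -0.04 and -0.30 with siGALNT1, a change of 0.55 (SE 0.32, unadjusted p = 0.115, adjusted p = 1.00, limma). DECR1 gave 0.63, 0.76 and 0.67 and 1.05, 1.01 and 0.88, the only member without overlap, 1 of 36 against 4.68% of all genes (2.39% above). Its change was 0.29 (SE 0.25, unadjusted p = 0.255). The changes of SLC27A2, DGAT2, CPT1A and ECHS1 were 0.32, -0.31, 0.24 and 0.22, with unadjusted p-values of 0.225, 0.323, 0.371 and 0.395.

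The median change of the members was -0.16 in HA22T, with 6 of 35 above 0, and 0.09 in PLC5, with 28 of 36 above 0. Over all genes the medians were -0.10 and 0.04, with 6190 of 16967 above 0 in HA22T and 9953 of 17316 in PLC5. The HA22T shift depended on scaling. With the percentile over unflagged spots the members' median was -0.03 and that of all genes 0.02, and with quantile normalization -0.07 and -0.03. With median scaling it was -0.22 and -0.16, and after normexp background correction -0.13 and -0.03. The members above 0 in HA22T were 14, 11, 4 and 10 of 35 under these scalings, in the order given. In PLC5 the members' median lay between 0.09 and 0.10 under these scalings.

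A direct test of whether the siGALNT1 change differed between the lines found 0 of 36 members (0% of all 17893 genes), with 0 at an unadjusted p below 0.05 and 0 at the study's criterion, against 1.88% of all genes. The smallest unadjusted p was 0.139, for ACADM, with a difference of 0.72 (SE 0.45, PLC5 minus HA22T). The values ran from -0.61 for FABP1 to 1.06 for EHHADH, and 7 of 36 intervals stayed within a factor of 2 in either direction, while the other intervals reached beyond it. Of the wider list, 0 of 59 tested passed in HA22T and 0 of 60 in PLC5. The criterion of fold and unadjusted p was met by 3 of the 59 in HA22T, against 2.52% of all genes, and by 0 of the 60 in PLC5. Among the 3 were the droplet protein CIDEA (0.71) and the peroxisomal protein ABCD3. The ABCD3 probe used had 2 values in HA22T siControl and 1 in HA22T siGALNT1, and its dimmer probe, read on all 12 arrays, gave -0.54 (unadjusted p = 0.12).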

How the data were processed

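RNA was hybridized to 12 one-color Agilent SurePrint G3 Human 8x60K arrays. The scanner files hold, per the file headers, spot intensities from Agilent Feature Extraction 10.5.1.1, of which the deposited processed signal is already background-subtracted. The authors also deposited a log2 table of the same arrays, used here as an alternative. Control spots and non-uniform outlier spots (489 to 3633 per array) were removed, and repeated spots were then averaged by probe. The array's 75th percentile over 58717 spots was subtracted from its log2 signal. Probes were named through their RefSeq accessions, which gave 28174 of 50599 probes and 20503 genes a name. The members and lists were chosen with earlier results of these data known.

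The 4 group means were fitted with limma 3.58.1 in R 4.3.3. Benjamini-Hochberg adjustment ran over all probes that entered a comparison, named or not, with a threshold of 0.05. A probe entered a comparison if 3 or more of the 6 arrays compared had it above background, and the brightest probe with a value in every group stood for its gene. The text names members that passed between the lines in either comparison, the 8 related genes with the largest siControl differences, and the 6 members with the smallest p under siGALNT1. Other members are named by role. Some related genes that these rules select are not reported here. The number of arrays, 3 per group, limits the precision, and an exact permutation test of 3 against 3 cannot go below p = 0.1. Intervals are 95% intervals. The test was checked on simulated data. Alternatives were background correction, scaling, probe filter, fit, blocks and each array left out. Normexp used the median spot signal with an offset of 50, as no mean signal was used. Same-numbered arrays deviated together in HA22T (r = 0.526, 0.264 and 0.338 for replicates 1, 2 and 3) but not throughout in PLC5 (0.58, 5.76e-05 and 0.182). Promoter sequences are RefSeq entries of GRCh38.p14. Figures were drawn with matplotlib 3.10.9 in Python 3.11.15.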

Additional observations from a re-analysis of the deposited data

How the results depend on the processing

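Between the lines, 13 members passed with siControl and 18 with siGALNT1. With siControl, array weights, chosen after seeing the data, gave 20 (15 higher and 5 lower). With siGALNT1, fitting only the groups compared gave 11 (11 higher and 0 lower), the methods' t-test after Benjamini-Hochberg gave 10 (9 and 1), and the slide with both lines alone gave 9 (9 and 0). The slide with both lines holds 1 array of each PLC5 group. The cause of these moves was not tested. For the related genes with siControl, the last of these settings gave 14 (12 and 2) against 22, array weights gave 31 (18 and 13) and the slide as a block 17 (15 and 2), against 16 higher and 6 lower. With each array left out in turn the counts ran from 11 to 14 with siControl, from 13 to 17 with siGALNT1 and from 18 to 23 for the related genes, and were 0 for each siGALNT1 comparison. With a replicate block, the counts were 13, 18 and 22, and 0 for each siGALNT1 comparison, so the pairing of replicates changed no count at the adjusted threshold. At the study's criterion it moved the members from 17 to 19, from 20 to 21 and, in HA22T under siGALNT1, from 0 to 1. The HA22T change of PPARGC1A, above background on 7 of 12 arrays, turned from -0.69 to 0.058 after normexp background correction. Signal over background left ACADL and PLIN5 untested and limits MTTP and OXCT1 to bounds.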
